A study of Mus musculus with 12 samples.

Results

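The collagen chaperones described here are 9 genes of the early secretory pathway, Serpinh1, Rcn1, Rcn2, Rcn3, Calu, Ppib, Fkbp9, Fkbp10 and Fkbp14, read from 12 single tendon cells. The genes were chosen by name and by their raw counts, CPM (counts scaled to 1000000 counts per cell) and detection in these same cells, so every value of theirs is a description and none is a test. All 9 of the 55418 genes in the count table were found by symbol. The cells came from non-injured Achilles tendons of Tnmd-/- ScxGFP+ mice, a constitutive knockout of tenomodulin, and of WT ScxGFP+ littermates on a C57BL/6J background, and both genotypes carried the ScxGFP reporter, which marks cells with an active Scx promoter. GFP+ cells were picked by hand after collagenase digestion and amplified by Smart-Seq2, and 6 cells of each genotype were deposited. Tnmd is X-linked, and by the study's methods its WT animals took in males and females, some of the females with a single intact allele. The age of the donor mice is not given in the sources used here. The study's methods give n = 2 for the tendons the cells came from, without saying whether this is per genotype or whether they were pooled, and the labels tie no cell to an animal. Each genotype was therefore taken as 1 sample, so there were no replicates, and no test between genotypes was made.

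Procollagen chains are folded and modified in the lumen of the endoplasmic reticulum (ER) before they are exported as a triple helix. Serpinh1, also called HSP47, binds the folded triple helix and releases it in the Golgi. Peptidyl-prolyl isomerases of the cyclophilin family (Ppib) and of the FK506-binding family (Fkbp9, Fkbp10, Fkbp14) turn the many proline bonds that slow collagen folding. The reticulocalbins (Rcn1, Rcn2, Rcn3) and calumenin (Calu) are calcium-binding EF-hand proteins of the CREC family, and Rcn3 takes part in collagen production and in postnatal tendon development. Inherited loss of SERPINH1, PPIB or FKBP10 causes brittle bone disease, and loss of FKBP14 causes a form of Ehlers-Danlos syndrome.

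Promoter windows are shown for Serpinh1 and Rcn3, whose presence or absence sorts the cells in what follows, and for Calu, which was seen in more cells than any other member. RefSeq on GRCm38.p6 gave windows for 7 of the 9 genes, from 250 bases before to 50 bases after the start of transcription. Capitals mark CCAAT (a box bound by NF-Y) and CCACG (the other part of the ER stress response element) on either strand. The Serpinh1 window is chr7:99353190-99353489 on the minus strand, that of Rcn3 is chr7:45092164-45092463 on the minus strand and that of Calu is chr6:29347856-29348155 on the plus strand.
Serpinh1: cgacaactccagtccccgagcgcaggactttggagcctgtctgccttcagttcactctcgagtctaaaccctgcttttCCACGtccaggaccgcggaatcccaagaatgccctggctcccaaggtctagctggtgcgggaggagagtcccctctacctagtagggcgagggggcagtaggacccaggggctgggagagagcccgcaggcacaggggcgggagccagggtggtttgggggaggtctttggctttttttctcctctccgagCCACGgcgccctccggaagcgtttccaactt
Rcn3: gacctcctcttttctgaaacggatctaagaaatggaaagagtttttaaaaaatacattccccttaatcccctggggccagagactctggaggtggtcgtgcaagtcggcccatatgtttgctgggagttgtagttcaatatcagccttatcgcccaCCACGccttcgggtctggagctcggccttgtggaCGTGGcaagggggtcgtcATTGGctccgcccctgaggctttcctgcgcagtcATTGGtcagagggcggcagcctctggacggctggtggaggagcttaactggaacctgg
Calu: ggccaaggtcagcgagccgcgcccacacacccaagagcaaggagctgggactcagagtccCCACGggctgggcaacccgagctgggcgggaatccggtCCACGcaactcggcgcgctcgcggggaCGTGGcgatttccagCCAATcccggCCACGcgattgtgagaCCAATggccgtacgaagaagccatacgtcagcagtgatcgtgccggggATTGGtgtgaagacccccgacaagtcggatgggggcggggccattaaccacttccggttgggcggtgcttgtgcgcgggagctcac
The Serpinh1 window held no CCAAT and 2 CCACG matches, the Rcn3 window 2 of each and the Calu window 3 CCAAT and 4 CCACG matches. Of 32851 mouse promoter windows of this length, 37.4% held CCAAT and 32.8% held CCACG on either strand. The full ER stress element, CCAAT and CCACG with 9 bases between them on either strand, was in none of the members' windows and in 0.119% of all windows. Pairs of heat shock factor half-sites (GAANNTTC or TTCNNGAA, both strands) were likewise in no member's window, against 7.86% and 8.52% of all windows.

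The cells differed in depth and in RNA quality. Total counts were 892713 to 10333351 in the Tnmd-/- cells and 4516036 to 13613080 in the WT cells, and 51.8% of the counts of Tnmd-/- cell 3 were mitochondrial, against 1.75 to 7.30% elsewhere. The annotation of the study's heat map puts Tnmd-/- cells 9, 10 and 20 and WT cells 4, 5 and 10 at a less degraded level and the remaining 3 cells of each genotype at a more degraded one. The targeted gene, Tnmd, had 8 counts in all 6 Tnmd-/- cells together and 10185 in the WT cells, of which WT cell 14 held 10178, so its count marks the genotype in 1 WT cell only. Scx had at least 10 counts in 3 WT cells and in no Tnmd-/- cell. Summed markers of tendon fibroblasts were at 1684 to 87463 CPM in the Tnmd-/- and 30395 to 176923 CPM in the WT cells, with all 9 markers read in some cell. Cartilage markers reached 1330 CPM in Tnmd-/- and 253 CPM in WT cells and mural markers 118 and 641 CPM, while the defining genes Col2a1, Rgs5 and Kcnj8 of these lists were at 0 in all cells. Endothelial markers reached 30.9 CPM, immune markers 0.871 CPM and skeletal muscle markers 6.72 CPM. Their part in the values of the chaperones was not tested.

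A gene is called seen in a cell here when it had at least 10 counts there. Serpinh1 was seen in 4 WT cells and 1 Tnmd-/- cell and Rcn3 in 3 WT cells alone, Fkbp10 was seen in 2 Tnmd-/- cells alone, and the other members were seen in cells of both genotypes or, for Fkbp14, in none. Of the 108 values (9 genes in 12 cells), 47 were 0, 25 were 1 to 9 counts, 4 were at least 10 but below 100, and 32 were 100 or more. The chaperones were therefore either at high counts in a cell or close to none, with 62 the highest count below 100 and 236 the next value above it. The values nearest to the limit for being seen were 7 counts (Fkbp9 in WT cell 1) and 12 counts (Calu in WT cell 14).

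**Figure D1:**
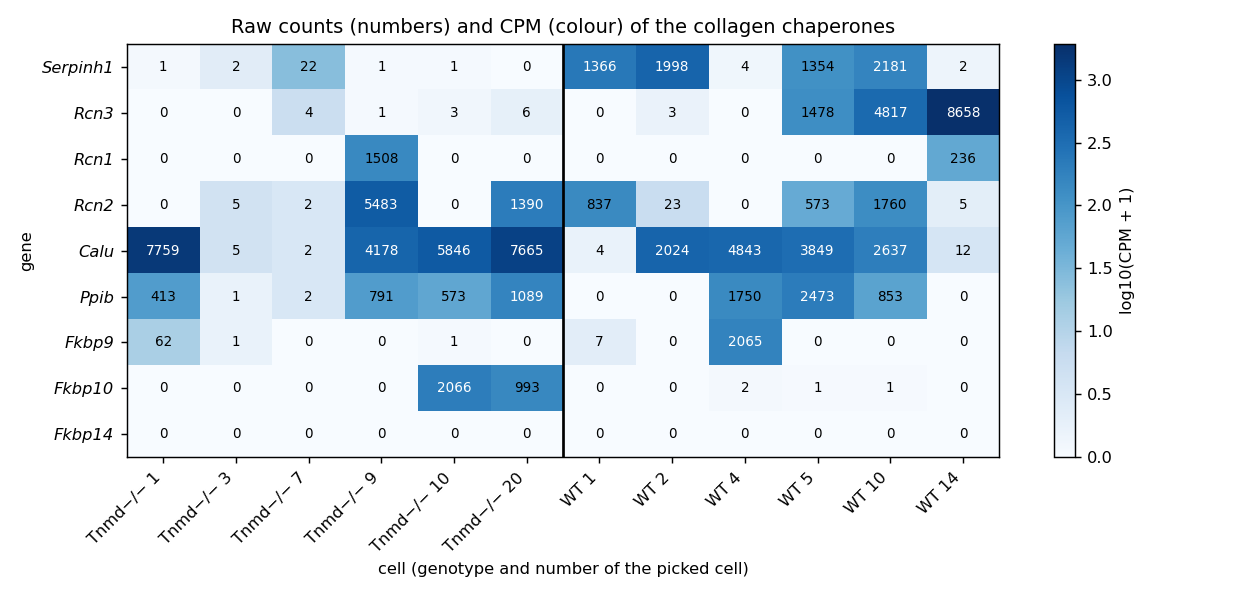
Raw counts (numbers) and log10(CPM + 1) (colour) of the 9 collagen chaperones, by gene (rows) and by cell (columns), with Tnmd-/- cells left and WT cells right of the black line. Serpinh1 and Rcn3 have 1354 counts or more in WT cells alone, Fkbp10 has 993 and 2066 counts in Tnmd-/- cells alone, and Fkbp14 is at 0 in all 12 cells.

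Serpinh1, the triple helix chaperone, lies on chromosome 7 (99345376 to 99353239, minus strand, GRCm38). It had 1366, 1998, 1354 and 2181 counts in WT cells 1, 2, 5 and 10, or 228, 414, 113 and 160 CPM. WT cells 4 and 14 had 4 and 2 counts. The Tnmd-/- cells had 1, 2, 22, 1, 1 and 0 counts in cells 1, 3, 7, 9, 10 and 20. Serpinh1 was thus seen in 4 of the WT cells but in only 1 cell of the knockout, cell 7, where the 22 counts stood for 24.6 CPM because that cell was the shallowest. The ranges of the genotypes overlapped through WT cells 4 and 14. Summed over cells, the level was 0.769 CPM in Tnmd-/- and 129 CPM in WT, a log2 ratio of −7.39 (95% counting interval −7.99 to −6.85). The ratio leaned on Tnmd-/- cell 7, without which it was −9.79, and it was −5.12 when each cell had the same weight.

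Rcn3, the reticulocalbin of the ER lumen, also lies on chromosome 7 (45082913 to 45092221, minus strand). It had 1478, 4817 and 8658 counts in WT cells 5, 10 and 14, or 123, 354 and 1917 CPM, the last being the highest CPM of any chaperone in any cell. WT cells 1, 2 and 4 had 0, 3 and 0 counts. In the Tnmd-/- cells the counts were 0, 0, 4, 1, 3 and 6, so no cell of that genotype was called as holding the gene, against 3 WT cells. The level over summed counts was 0.399 CPM in Tnmd-/- and 280 CPM in WT, with a log2 ratio of −9.45 (−10.33 to −8.71). Without WT cell 14, which held more than any other cell, it was −8.33. Gm45669 shares 16.9% of the exon bases of Rcn3, and the strand setting of the counting is not given, so some of these reads may belong to either gene.

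Ratios past 4-fold were common in these sparse counts. Of the 9768 genes whose counts summed to 20 or more, 32.6% were at least 4-fold lower and 32.6% at least 4-fold higher in the summed Tnmd-/- counts. Among the chaperones 3 (Serpinh1, Rcn3, Fkbp9) were past this fold on the low side, 2 (Fkbp10, Rcn1) on the high side and 3 (Rcn2, Calu, Ppib) within it. The median log2 ratio of the 8 genes with counts was 0.66, against 0.08 over all 9768 genes, whose lowest and highest deciles were −8.17 and 8.33. Of the 10123 genes seen in any cell, 3.65% were seen in at least 3 more WT than Tnmd-/- cells, as Serpinh1 and Rcn3 were. The reverse, at least 3 more Tnmd-/- cells, held for 1.82% of genes and for no chaperone. Either difference is open only to genes seen in at least 3 cells, which were 4245 of the 10123. A further limit is that 42.0% of the 10123 were seen in exactly 1 cell, so these shares are low by construction. Because the chaperones were chosen on these values, nothing is read from their share.

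**Figure D2:**
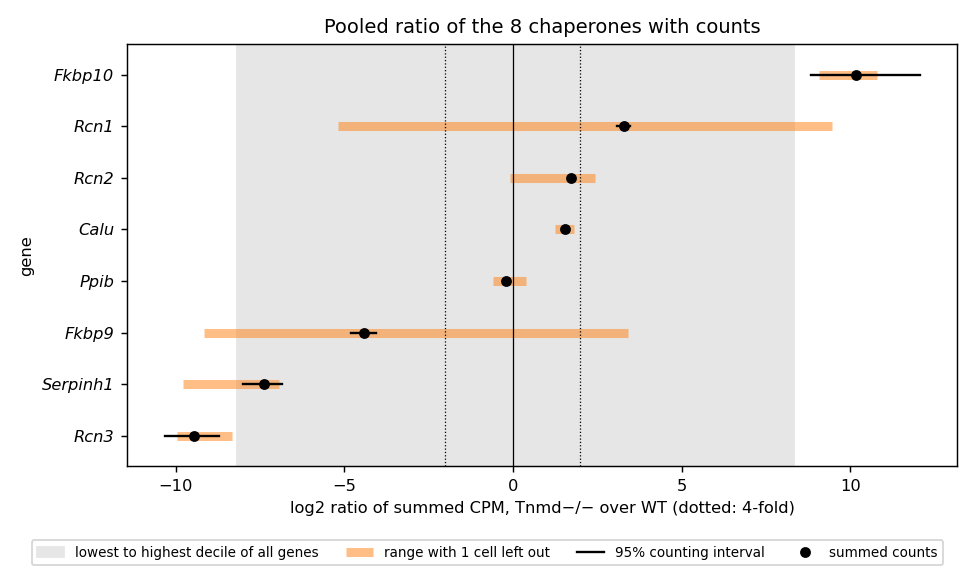
Log2 ratio of summed CPM, Tnmd-/- over WT (horizontal axis), for the 8 chaperones with counts (vertical axis). Dots are the ratios, black lines 95% counting intervals, orange bars the range when 1 cell is left out, the grey band the lowest to the highest decile of all genes and dotted lines a 4-fold difference, and the bars of Rcn1, Fkbp9, Rcn2 and Ppib cross 0 while those of Serpinh1, Rcn3, Calu and Fkbp10 do not.

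Calu, an ER and secreted calcium-binding protein (chromosome 6, 29348069 to 29377110, plus strand), was the most widely held chaperone. It was seen in 9 of 12 cells, a number reached by 7.77% of the genes seen in any cell, whose median was 2 cells. The Tnmd-/- cells 1, 9, 10 and 20 had 7759, 4178, 5846 and 7665 counts, and cells 3 and 7 had 5 and 2. The counts of WT cells 1, 2, 4, 5, 10 and 14 were 4, 2024, 4843, 3849, 2637 and 12. Where it was seen, Calu was at 404 to 1461 CPM in Tnmd-/- and at 2.66 to 419 CPM in WT cells, so the ranges overlapped between 404 and 419 CPM. The summed levels were 725 and 250.2 CPM, with a log2 ratio of 1.54 (1.51 to 1.57), and between 1.25 and 1.80 when 1 cell was left out.

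Rcn2, the reticulocalbin first described as a partner of a viral oncoprotein (chromosome 9, 56041845 to 56061882, plus strand), was seen in 2 Tnmd-/- and 4 WT cells. Its counts were 5483 and 1390 in Tnmd-/- cells 9 and 20 and 837, 23, 573 and 1760 in WT cells 1, 2, 5 and 10. Fewer Tnmd-/- than WT cells thus held it, yet the summed level was higher, at 196 against 59.8 CPM, a log2 ratio of 1.71 (1.65 to 1.77). That ratio rested on 1 cell, since it was −0.08 without Tnmd-/- cell 9. Rcn1, its close relative (chromosome 2, 105386291 to 105399319, minus strand), was seen in 1 cell of each genotype, with 1508 counts in Tnmd-/- cell 9 and 236 in WT cell 14, and had 0 counts in the other 10. Its log2 ratio of 3.28 (3.08 to 3.49) compares these 2 cells, and leaving out either one leaves a genotype at 0 counts.

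Ppib, cyclophilin B, which works with the prolyl 3-hydroxylation complex (chromosome 9, 66060222 to 66066623, plus strand), was seen in 4 Tnmd-/- and 3 WT cells. Its counts were 413, 791, 573 and 1089 in Tnmd-/- cells 1, 9, 10 and 20, and 1750, 2473 and 853 in WT cells 4, 5 and 10. WT cells 1, 2 and 14 had 0 counts. Summed levels were close, at 81.8 CPM in Tnmd-/- and 94.99 CPM in WT (log2 ratio −0.22, interval −0.28 to −0.15), and the sign turned without WT cell 5 (0.38). All 7 cells with Ppib also held Calu. Snx22 shares 25.0% of the exon bases of Ppib.

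The FK506-binding isomerases were each found in few cells. Fkbp10, also called FKBP65 and a partner of lysyl hydroxylase (chromosome 11, 100415697 to 100424824, plus strand), had 2066 and 993 counts in Tnmd-/- cells 10 and 20, and 0 in the other Tnmd-/- cells. The WT cells had 0, 0, 2, 1, 1 and 0 counts in cells 1, 2, 4, 5, 10 and 14. Summed levels were 87.2 and 0.0749 CPM, with a log2 ratio of 10.19 (8.83 to 12.06), and both cells that held the gene were of the less degraded level. Fkbp9 (chromosome 6, 56832059 to 56879358, plus strand) had 2065 counts in WT cell 4 and 62 in Tnmd-/- cell 1, with at most 7 in any other cell. Its log2 ratio of −4.41 (−4.79 to −4.05) became 3.42 without WT cell 4 and −9.17 without Tnmd-/- cell 1. Fkbp14 (chromosome 6, 54577604 to 54597308, minus strand) had 0 counts in all 12 cells. The floor of 3 counts in each sum stands for 0.0855 CPM in Tnmd-/- and 0.0561 CPM in WT. That floor concerns counting only and sets no upper limit on the transcripts in a cell.

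Per kilobase of exon, which allows levels of different genes to be compared, the order of the chaperones differed between the genotypes. In the summed Tnmd-/- counts Calu came first at 156 CPM per kb, followed by Rcn2 at 41.3, Fkbp10 at 29.7, Ppib at 24.7 and Rcn1 at 13.4 CPM per kb. Fkbp9, Serpinh1 and Rcn3 followed at 0.550, 0.315 and 0.232 CPM per kb. In the WT counts Rcn3 came first at 163 CPM per kb, then Calu at 53.7, Serpinh1 at 52.9, Ppib at 28.7, Rcn2 at 12.6 and Fkbp9 at 11.7 CPM per kb, with Rcn1 at 1.38 and Fkbp10 at 0.0255. With no replicates, neighbours in these orders were not separated beyond the spread between cells.

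Most cells without Serpinh1 held relatives. Serpinh1 was not seen in 7 cells (Tnmd-/- cells 1, 3, 9, 10 and 20, WT cells 4 and 14), and 6 of these held 3 or 4 of the other 8 chaperones, with Tnmd-/- cell 3 as the exception. Calu was seen in 6 of the 7 and Ppib in 5. Over all relatives, 20 of 56 gene and cell pairs (35.7%) were seen in cells without Serpinh1 and 11 of 40 (27.5%) in the 5 cells with it. Over all genes seen in any cell the shares in the same cells were 26.8% and 25.8%. Rcn2 and Rcn3 went the other way. Rcn2 was seen in 4 of the 5 cells with Serpinh1 and in 2 of the 7 without, and Rcn3 in 2 of the 5 and 1 of the 7. Rcn1, Fkbp9 and Fkbp10 were each seen in only 2 cells, none of which held Serpinh1, and nothing is read from so few.

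The same held for Rcn3, which was not seen in 9 cells, of which 8 held a relative. In those 9 cells 23 of 72 pairs (31.9%) were seen, and in the 3 cells with Rcn3 10 of 24 (41.7%), beside 26.1% and 27.3% over all genes. Calu was seen in all 3 cells with Rcn3 and in 6 of the 9 without. Serpinh1 and Rcn3 were seen together in WT cells 5 and 10. Serpinh1 was seen without Rcn3 in WT cells 1 and 2 and in Tnmd-/- cell 7, and Rcn3 without Serpinh1 in WT cell 14. Across the 12 cells, which differ in depth and degradation, their log2(CPM + 1) values had a Pearson r of 0.228. This is a description over 12 cells, in which the 2 genes share libraries and zeros.

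The number of chaperones in a cell tended to be higher at the less degraded level, where every cell was also deeper. Total counts were 6742665 to 13613080 in the less and 892713 to 5991316 in the more degraded cells. Depth and degradation therefore cannot be told apart in the deposited counts. Members seen were 3, 0, 1, 4, 3 and 4 in Tnmd-/- cells 1, 3, 7, 9, 10 and 20 and 2, 3, 3, 5, 5 and 3 in WT cells 1, 2, 4, 5, 10 and 14. The less degraded cells held 3 to 5 and the more degraded cells 0 to 3. In all, 15 of 54 pairs were seen in the Tnmd-/- cells and 21 of 54 in the WT cells, and over the 10123 genes seen in any cell 25.4% and 27.4% of the pairs were. Within the less degraded level the chaperones had 11 and 13 of 27 pairs, against 30.4% and 34.8% over all genes. Within the more degraded level they had 4 and 8 of 27, against 20.5% and 19.99%. When every cell was thinned to the 892713 counts of the shallowest, WT cells 2 and 14 each lost 1 member (Rcn2 and Calu, which were near the limit) and no other cell changed. Serpinh1 and Rcn3 were at log2 ratios of −10.31 and −8.82 in the less degraded cells and of −6.08 and −10.09 in the more degraded ones. The part of depth and degradation in the differences between genotypes was not tested.

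**Figure D3:**
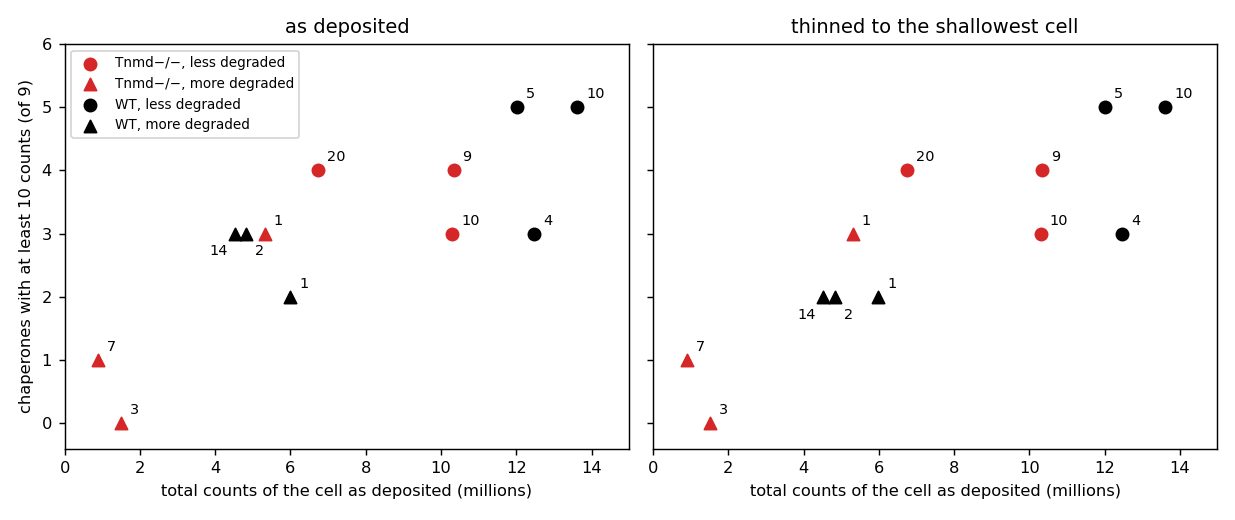
Number of the 9 chaperones with at least 10 counts (vertical axis) against the total counts of the cell (horizontal axis, in units of 1000000), as deposited (left) and after thinning every cell to 892713 counts (right); points carry the cell's number, colour gives the genotype and shape the degradation level. The 2 shallowest cells, Tnmd-/- cells 3 and 7, hold 0 and 1 chaperones in both panels, and of the 3 deepest, WT cells 5 and 10 hold 5 each and WT cell 4 holds 3.

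The collagen clients of the chaperones were also seen in cells in which Serpinh1 was not. Col1a1 or Col1a2, the chains of type I collagen, had at least 10 counts in all 7 cells without Serpinh1 and in all 5 with it. Col1a2 had 436 to 2379 counts in Tnmd-/- cells 1, 3, 9 and 20 and 10 in cell 10, cells with 0 to 2 Serpinh1 counts, and 5824 and 3602 counts in WT cells 4 and 14. Over 12 collagen genes, 35 of 84 pairs (41.7%) were seen in cells without Serpinh1 and 33 of 60 (55.0%) in cells with it. Tnmd-/- cell 7, the only cell of its genotype with Serpinh1, had 1983 Col1a1 and 2927 Col1a2 counts in the shallowest library. WT cell 2, with the highest Serpinh1 level of any cell (414 CPM), had only 3 Col1a1 and 11 Col1a2 counts. Its collagen genes together were at 9.12 CPM, the lowest of any cell. Of the 11 collagen genes with at least 20 counts, 4 were at least 4-fold lower in Tnmd-/-, none at least 4-fold higher and 7 within. Over all genes 32.6% were past the fold on each side. The median log2 ratio of the 11 was −0.85, and by sign alone 9 were lower and 2 higher. Summed counts give deep cells more weight. Per cell, the collagen genes together were at 323 to 7977 CPM in Tnmd-/- cells (median 2116). In WT cells they were at 9.12 to 3043 CPM (median 1722), so no common direction is read. Among the 11, Col14a1 was the lowest, at a bound of −6.40 from 0 Tnmd-/- and 385 WT counts, all in WT cell 10. Col6a3 was the highest at 1.78 (1.76 to 1.81), and between 1.08 and 2.47 with 1 cell left out. Col5a2, named for its high counts, was at −1.44 (−1.48 to −1.39), and between −3.17 and −0.60 with 1 cell left out.

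**Figure D4:**
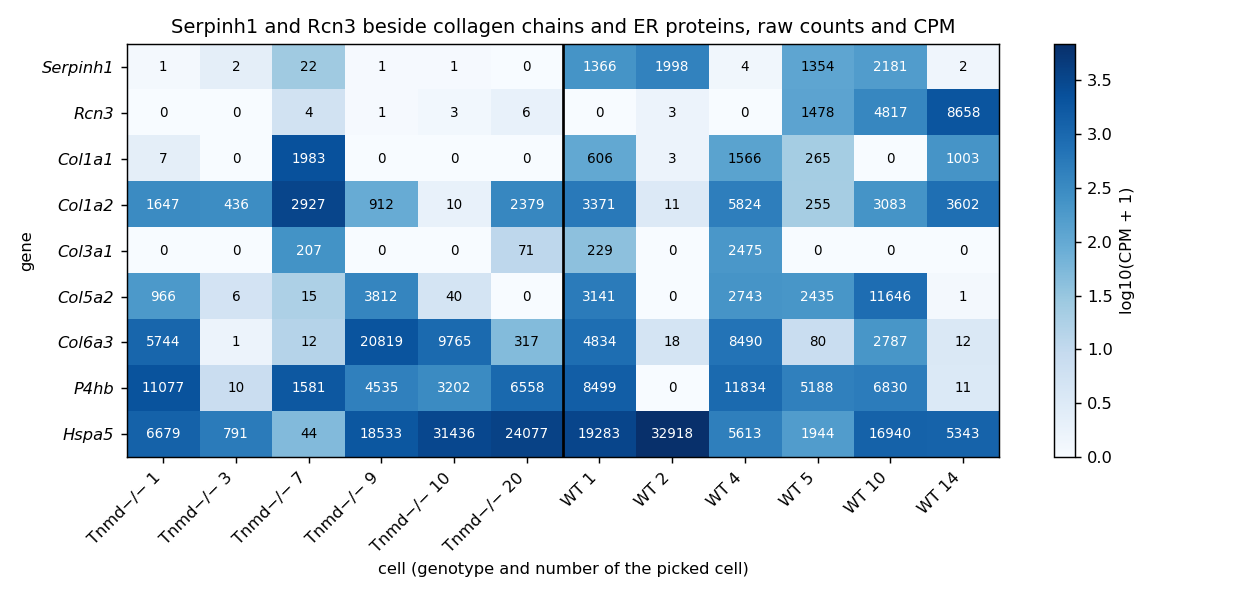
Raw counts (numbers) and log10(CPM + 1) (colour) of Serpinh1 and Rcn3 above 5 collagen chains, P4hb and Hspa5, by gene (rows) and cell (columns), with Tnmd-/- cells left of the black line. Hspa5 is at 44 counts or more in every cell and Col1a2 at 10 or more, also where Serpinh1 and Rcn3 are at 0 to 6 counts.

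Of 13 general ER folding genes, 5 were seen in all 12 cells and 6 in 5 or fewer. Hspa5 (BiP, the main ER chaperone), Pdia3 and Canx, named for their high counts, were among those seen in all cells, with log2 ratios of 0.60 (0.58 to 0.61), −0.11 (−0.13 to −0.09) and 0.18 (0.15 to 0.20). With 1 cell left out Hspa5 stayed above 0, while Pdia3 reached 0.31 without WT cell 1 and Canx −0.07 without WT cell 5. These summed ratios give deep cells more weight. Per cell Hspa5 was at 49.3 to 3571 CPM in Tnmd-/- and at 162 to 6822 CPM in WT cells. The ranges overlapped, and the sign of Hspa5 is not settled. Of 12 ER folding genes with at least 20 counts, 3 were at least 4-fold lower, 2 higher and 7 within, with a median of 0.28. Over all genes 32.6% were past the fold on each side. Pdia6, a disulfide isomerase, was among the lower ones at −6.46 (−6.76 to −6.17), and Hyou1, an Hsp70-like ER protein, among the higher at 9.23 (7.68 to 11.51), on the basis of 1 cell.

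The enzymes that modify collagen before it folds showed no common direction. Of 11 hydroxylation genes with at least 20 counts, 2 were at least 4-fold lower, 2 higher and 7 within, and the median was 0.34. The share of all genes past the fold was 32.6% on each side. P4hb, the disulfide isomerase subunit of prolyl 4-hydroxylase, was seen in 6 Tnmd-/- and 5 WT cells with a log2 ratio of 0.34 (0.32 to 0.37), and the catalytic subunit P4ha1 in 5 cells of each genotype at 0.71 (0.68 to 0.74). Both changed sign with 1 cell left out, P4hb to −0.18 without Tnmd-/- cell 1 and P4ha1 to −0.08 without Tnmd-/- cell 9. P4ha2, another catalytic subunit, was seen in 1 Tnmd-/- and 3 WT cells and stood at −6.13 (−7.01 to −5.38), and at −8.70 without Tnmd-/- cell 1, while P4ha3 had 0 counts in all cells. The closest relatives of the chaperones, the ER isomerases Fkbp2, Fkbp7, Fkbp11 and Ppic, were all lower in the summed Tnmd-/- counts. Log2 ratios were −1.81 for Fkbp2, −6.10 for Fkbp11 and −3.16 for Ppic, and Fkbp7 was at 36.5 CPM in Tnmd-/- against 73.1 CPM in WT. Each, however, was seen in 2 or fewer cells of a genotype. Without WT cell 1 Fkbp2 was at −0.05, without WT cell 14 Ppic was at −1.02, and Fkbp7 was at 0.02 without WT cell 10. All 209 WT counts of Fkbp11 were in WT cell 5. Sdf4, a CREC protein of the Golgi, was seen in 3 Tnmd-/- and 5 WT cells at 0.30 (0.27 to 0.32).

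Of 15 export genes with at least 20 counts, 7 were at least 4-fold higher, 2 lower and 6 within, with a median of 0.92. Over all genes 32.6% were past the fold on each side. Each of the 7 had 71% or more of its Tnmd-/- counts in 1 cell, and ratios with 0 WT counts are bounds. Kdelr2, a receptor that returns ER proteins and binds the retrieval signal of HSP47, was seen in all 12 cells at −0.47 (−0.50 to −0.45). Surf4, a cargo receptor, was seen in 5 cells of each genotype at −0.82 (−0.87 to −0.78). Sec24d, a coat subunit used for procollagen export, was lower, at −5.64 (−5.92 to −5.37), and Tmem38b, an ER cation channel needed for collagen synthesis in bone, was higher, at 8.92 (6.43 to 14.22), with 317 counts against 1. Of the 317, 304 were in Tnmd-/- cell 3, the cell with the high mitochondrial share, and the ratio was 4.37 without it. Sec24d was at −3.26 without WT cell 2, which held 7065 of its 8560 WT counts. Kdelr2 was at 0.10 without WT cell 2.

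The genes whose pattern over the 12 cells was most like that of Serpinh1 were ranked by Pearson r of log2(CPM + 1) among 4245 genes seen in at least 3 cells. These were Abcf3 (0.918), Hnrnpul2 (0.878), Rars (0.868), Serp1 (0.854) and Hccs (0.849). Abcf3 had 502, 1400, 3481 and 349 counts in WT cells 1, 2, 5 and 10, the 4 WT cells that held Serpinh1. For Rcn3 they were Nkiras1 (0.995), Arf5 (0.990), Klhl26 (0.982), Sssca1 (0.963) and Cd200 (0.952). Nkiras1 had 477, 1121 and 2580 counts in WT cells 5, 10 and 14 and fewer than 10 elsewhere, the same cells as Rcn3. Each of these 10 genes was seen in 3 to 6 cells, and the values are given as a description.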

How the data were processed

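The single-cell RNA sequencing of 6 Tnmd-/- and 6 WT cells was analysed here. The authors trimmed reads with BBDuk 38.84, removed foreign reads with BioBloom Tools 2.0.13, aligned with STAR 2.5.1b to GRCm38 (Ensembl 96) and assigned reads to exons with featureCounts (Subread 2.0.0). They deposited raw counts per gene and cell, without molecular identifiers or normalization. Gene lengths came from the same table.

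Counts were divided by the cell's total, or by the genotype's sum, and expressed as CPM. Ratios carry exact binomial intervals at 95%, which cover counting error only. A genotype at 0 gave a bound against 3 counts. The limits for being seen (10 counts), for the background (20 counts) and for the fold (4) are stated in the text. The likeness of patterns used log2(CPM + 1). Members, lists and markers were chosen with earlier results of these data known. From each list, the 3 genes with the most counts and, above 100 counts, the largest ratio in each direction could be named, with the 5 genes closest in pattern to Serpinh1 and to Rcn3. Col1a1, Col1a2 and Col3a1 were named after their values were seen. Alternatives were equal weights, DESeq2 1.42.0 and edgeR 4.0.16 factors, totals without mitochondrial and top genes, each degradation level, thinning, other count limits and each cell left out. Calculations used scipy 1.17.1, pandas 2.3.3, R 4.3.3 and Python 3.11.15, and the pooled ratio was tested on simulated counts. The simulated cells shared a common profile with planted changes and differed otherwise only in depth and counting error. They lacked the spread between cells seen here, so they checked the arithmetic only. The authors' differential expression was not rerun, and the histology and mechanics were not analysed here.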

Additional observations from a re-analysis of the deposited data

Results flagged for a closer look

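In 6 of 16 groups of 6 cells (8 chaperones with counts in each genotype), 1 cell stood apart from the other 5 on the log2(CPM + 1) scale by Dixon's criterion, which chance meets in about 1 of 20 groups of normally spread values. Genes with counts in few cells meet it easily. Rcn1 was at 146 CPM in Tnmd-/- cell 9 and at 52.3 CPM in WT cell 14, with 0 counts in the other 5 cells of each genotype. Fkbp9 was at 166 CPM in WT cell 4 and at 11.7 CPM in Tnmd-/- cell 1. Serpinh1 was at 24.6 CPM and Rcn3 at 4.48 CPM in Tnmd-/- cell 7, from 22 and 4 counts, and that cell had the smallest total of all.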

How the results depend on the processing

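The log2 ratios of Serpinh1 (−10.31 to −4.89), Rcn3 (−10.18 to −7.65), Calu (0.98 to 2.92) and Fkbp10 (6.36 to 10.80) kept their sign in all alternatives that gave a value; Fkbp10 had none in the more degraded cells. Rcn1 turned to −0.97 with DESeq2 factors and to −5.31 in the more degraded cells, and ranged from −5.19 (without Tnmd-/- cell 9) to 9.45 (without WT cell 14) with 1 cell left out. Fkbp9 turned to 4.16 in the more degraded cells and ranged from −9.17 to 3.42. Rcn2 changed sign in 2 of 19 alternatives and Ppib in 4. Values of Rcn1 and Ppib with a genotype at 0 counts are bounds. The median over the chaperones, 0.66, was 0.54 with equal weights, −0.35 with DESeq2 factors, 0.28 with edgeR factors, 0.27 in less and −5.31 in more degraded cells, and −2.04 (without Tnmd-/- cell 9) to 1.57 (without WT cell 4) with 1 cell left out, so it has no stable sign. In the more degraded cells the median left out Fkbp10 and was itself the bound of Rcn1 (0 against 236 counts). Why the median moved was not tested.

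Counting 1 read as seen raised the pairs from 15 to 31 in Tnmd-/- and from 21 to 30 in WT cells, which turned their order. It left 1 cell without Serpinh1, which held relatives, with 5 pairs seen, and 4 cells without Rcn3, all 4 of which held a relative. Requiring 100 counts, an alternative added after the data were seen, gave 13 pairs in Tnmd-/- and 19 in WT cells. With 1 cell left out, pairs seen were 11 to 15 in Tnmd-/- and 16 to 19 in WT. No paired analysis was possible because no test was made and cell numbers only name cells. Depth limits the low values: 1 count in the shallowest cell exceeds 1 CPM.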
